A study of Arabidopsis thaliana with 14 samples.

Results

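IKU1 and MPC are 2 genes of Arabidopsis thaliana that are known from the growth and the imprinting of the endosperm, the nourishing tissue of the seed. They were chosen by their gene symbol in the array's probe annotation and are 2 of the 13350 genes named there. Each has 1 probe set, which was bright enough to be tested, as were those of 9760 named genes. In the gene table of the TAIR10.1 assembly IKU1 has the locus tag AT2G35230 and MPC the locus tag AT3G19350. The arrays came from untreated Ws-0 plants, 38 to 46 days old, whose seeds held an embryo proper of 2 to 8 cells. A laser cut 6 compartments out of sections: the embryo proper, the micropylar, peripheral and chalazal endosperm, and the general and chalazal seed coat. The source label of the peripheral endosperm calls it cellularized. Sections of whole seeds made a 7th group. Each group had 2 biological replicates, so there were 14 arrays, and the labels do not say which plants gave which region.

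In Arabidopsis the young endosperm grows as a shared cytoplasm with many nuclei before cell walls form, and the length of this phase bears on seed size. IKU1 (HAIKU1) encodes a protein with a VQ motif that acts with the WRKY factor MINI3 and the receptor kinase IKU2, and plants without it make small seeds whose endosperm forms walls early. MPC encodes a protein like the C-terminal domain of poly(A)-binding proteins and is expressed in the endosperm from the copy inherited from the mother. The arrays sum the transcripts of both parental copies, so they measure the level of MPC and not its imprinting.

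Values below are signals in the linear units of the array, given for each replicate or as mean ± SD (n = 2 arrays per group). Each difference is given as log2(signal + 35.9) with its standard error (SE), and it is called where the adjusted p from limma is under 0.05 and the fold is at least 2. A signal is comparable across arrays for 1 gene only, and the levels of IKU1 and MPC were not set against each other. Fewer cells of a type in a section and less RNA per cell cannot be told apart in these samples. Over probe sets, which share their array, the 2 replicates correlated less in the chalazal (r = 0.852) and micropylar endosperm (0.858) than in the other groups (0.900 to 0.930).

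IKU1 was bright in 2 of the 3 endosperm regions. Its signal was 1312 and 1363 in the peripheral endosperm. It was 1005 and 2548 in the chalazal endosperm. The micropylar endosperm gave 775 and 209, the widest ratio between replicates of any group. The 4 arrays of the peripheral and chalazal endosperm therefore lay above all 10 other arrays, while the micropylar replicates lay on both sides of the remaining groups.

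Outside the endosperm IKU1 stayed in a narrow band. The embryo proper had signals of 430 and 316. The general seed coat had 277 and 236. The chalazal seed coat had 419 and 213, and the whole seed 454 and 213. All 4 groups fell within the range of the micropylar pair. Both embryo proper arrays lay above both general seed coat arrays, and the chalazal seed coat and whole seed each had 1 array below both groups. IKU1 lay above the 40th percentile of the array on all 14 arrays.

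MPC was brightest in the peripheral endosperm, and its levels spread far more widely over the seed. The peripheral endosperm had signals of 4653 and 5211. The micropylar endosperm had 1115 and 779, and the chalazal endosperm 396 and 348. These 3 endosperm regions did not overlap with each other, and both peripheral arrays lay above all 12 other arrays. The share of all tested probe sets whose arrays separate in these ways was not counted, here or for IKU1.

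The embryo proper gave an MPC signal of 82.3 and 329. The general seed coat had 101 and 164. The chalazal seed coat had 7.41 and 5.94, the lowest values of the 14. The whole seed had 713 and 490.4, between the micropylar and the chalazal endosperm. MPC passed the 40th percentile of the array on 11 of 14 arrays, and both chalazal seed coat arrays were among the 3 that did not.

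**Figure D1:**
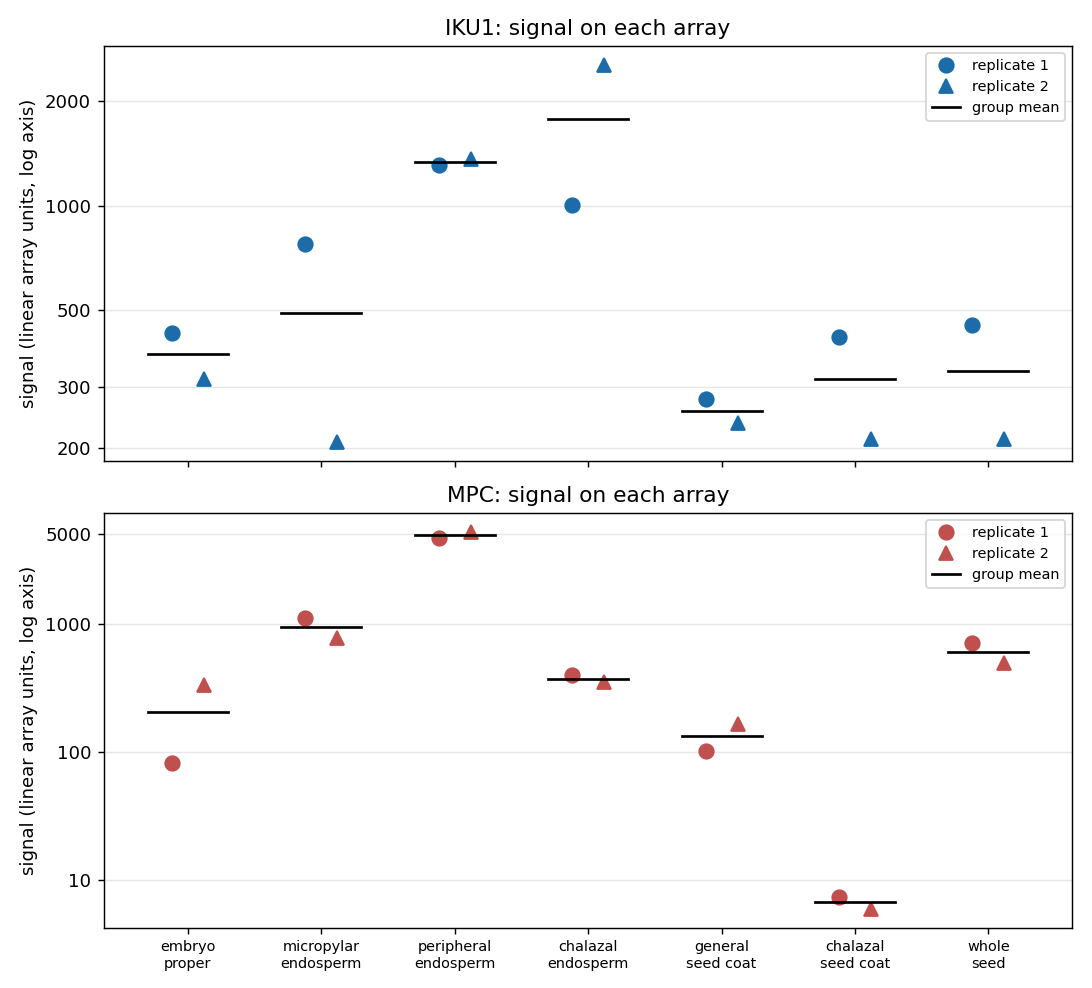
Signal of IKU1 (upper panel) and MPC (lower panel) on each of the 14 arrays in linear array units on a log axis, by group, with circles and triangles for replicates 1 and 2 and a line for the group mean. IKU1 lies at 1005 to 2548 in the peripheral and chalazal endosperm and at 209 to 775 elsewhere, and MPC lies at 4653 and 5211 in the peripheral endosperm and at 5.94 and 7.41 in the chalazal seed coat.

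The share of a gene's summed 6 compartment means that lay in its brightest compartment differed between the genes. For MPC the peripheral endosperm held 74.8% of that sum, and 5.27% of the 17336 tested probe sets had a larger share in their own brightest compartment. For IKU1 the chalazal endosperm held 39.0% and the peripheral endosperm 29.4%, and 37.4% of tested probe sets had a larger share in one compartment than IKU1. Across all tested probe sets this share had a median of 34.3%, so IKU1 was close to it and MPC well above it.

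Over the 6 compartments both genes differed by limma's F test, with an adjusted p of 0.00238 for IKU1 and 6.07e-08 for MPC. This test called 62.5% of tested probe sets, so passing it was common.

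Endosperm was then set against the maternal seed coat, as the mean of 3 regions against the mean of 2. Both genes were higher in endosperm, where 14.0% of tested probe sets were called higher and 22.2% lower (36.2% in all). IKU1 was higher by 1.67 (SE 0.38, 95% interval 0.88 to 2.47, adjusted p = 0.00138), a 3.19-fold difference. MPC was higher by 3.90 (SE 0.36, interval 3.15 to 4.64, adjusted p = 2.87e-08). Its chalazal seed coat signals lay under the added 35.9, so the size depended on it and was 5.35 with no pseudocount and 3.10 with a pseudocount of 100. A two-sided exact permutation test of the 6 endosperm against the 4 seed coat arrays gave p = 0.0476 for IKU1 and p = 0.00952 for MPC, the smallest that 210 arrangements allow. That test treats the arrays as independent, though replicates of a region share their tissue, so its p-values are likely too small. They are also not adjusted over probe sets.

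Each endosperm region was also set against the general seed coat. The peripheral endosperm was higher for both genes, by 2.23 (SE 0.59, adjusted p = 0.00729) for IKU1 and by 4.91 (SE 0.55, adjusted p = 1.40e-06) for MPC, in a comparison that called 26.1% of probe sets. The chalazal endosperm was higher for IKU1 by 2.49 (SE 0.59, adjusted p = 0.00277). MPC had a difference of 1.30 there (SE 0.55, adjusted p = 0.0770), and 32.4% were called. The micropylar endosperm was higher for MPC by 2.55 (SE 0.55, adjusted p = 0.00145), and for IKU1 the difference was 0.61 (interval -0.63 to 1.85, adjusted p = 0.485), with 27.7% called. So against the general seed coat each gene passed in 2 of 3 regions, and only the peripheral endosperm passed for both. The IKU1 calls were lost without peripheral endosperm replicate 2 (adjusted p = 0.0517) or general seed coat replicate 2 (0.0528) in the first comparison, and without chalazal endosperm replicate 2 (0.0554) in the second. The chalazal difference of MPC passed after quantile normalization (1.61, adjusted p = 0.0315).

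Against the chalazal seed coat, where MPC was lowest, MPC was called higher in all 3 endosperm regions and IKU1 in 2. In the peripheral endosperm MPC was higher by 6.86 (adjusted p = 1.47e-08) and IKU1 by 2.03 (SE 0.59, adjusted p = 0.0124), where 30.6% of probe sets were called. In the chalazal endosperm MPC was higher by 3.26 (adjusted p = 0.000129) and IKU1 by 2.28 (SE 0.59, adjusted p = 0.00573), with 31.4% called. In the micropylar endosperm MPC was higher by 4.51 (adjusted p = 2.52e-06), and IKU1 had a difference of 0.40 (interval -0.84 to 1.64, adjusted p = 0.649), with 30.8% called. The sizes for MPC again depended on the pseudocount, and with none they were 9.54, 5.81 and 7.13 in the same order of regions. The IKU1 calls were lost without chalazal seed coat replicate 2 (adjusted p = 0.132 and 0.0766), and also without peripheral endosperm replicate 1 (0.0632) or 2 (0.0699) in the first comparison and chalazal endosperm replicate 2 (0.0907) in the second.

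Within the endosperm the genes had different orders of regions. For IKU1 the chalazal region was higher than the micropylar by 1.88 (SE 0.59, interval 0.64 to 3.12, adjusted p = 0.0251). For MPC the same difference was -1.25 (interval -2.40 to -0.10, adjusted p = 0.109), and the comparison called 23.6% of probe sets. The IKU1 call rested on 1 replicate of each region, since the difference was 1.02 without micropylar endosperm replicate 2 (adjusted p = 0.294) and 1.23 without chalazal endosperm replicate 2 (0.235).

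The chalazal endosperm was lower than the peripheral for MPC by -3.61 (SE 0.55, interval -4.76 to -2.45, adjusted p = 5.26e-05), a 12.2-fold difference, in a comparison that called 26.9% of probe sets. For IKU1 these regions differed by 0.26 (interval -0.98 to 1.49, adjusted p = 0.790), an interval that holds changes past the fold threshold. The micropylar endosperm was lower than the peripheral for MPC by -2.36 (SE 0.55, adjusted p = 0.00768), where 12.2% were called. The IKU1 difference there was -1.62 (interval -2.86 to -0.39, adjusted p = 0.0798). The MPC call was lost without micropylar endosperm replicate 2 (adjusted p = 0.0601) or peripheral endosperm replicate 1 (0.0585) or 2 (0.0726), and IKU1 passed without micropylar endosperm replicate 1 (-2.49, adjusted p = 0.0216).

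**Figure D2:**
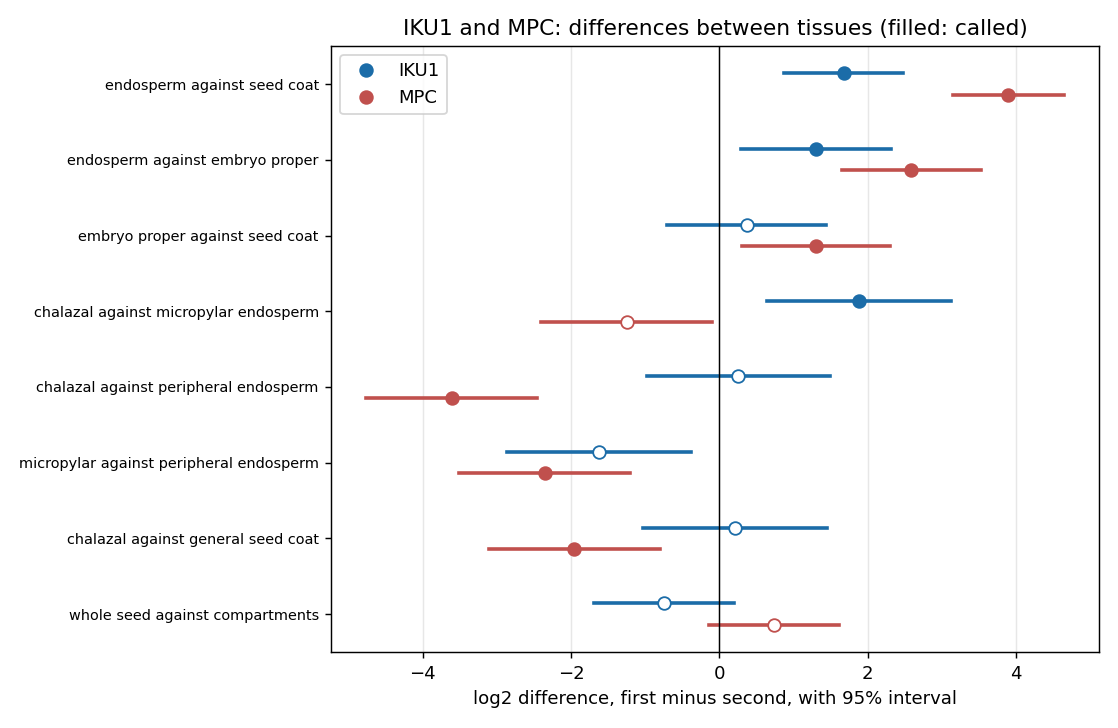
Differences of IKU1 (blue) and MPC (red) in 8 comparisons, as points with 95% intervals on the log2(signal + 35.9) scale, first-named tissue minus second, filled where called. Both genes are higher in endosperm than in seed coat (1.67 and 3.90), while MPC is lower (-3.61) and IKU1 close to level (0.26) in the chalazal against the peripheral endosperm.

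The embryo proper was lower than the mean of the endosperm for both genes, and 27.8% of probe sets were called in this comparison. For MPC the endosperm was higher by 2.59 (SE 0.45, adjusted p = 0.000205). IKU1 was higher by 1.30 (SE 0.49, interval 0.29 to 2.32, adjusted p = 0.0480). This IKU1 call was near the threshold. Of 21 alternative fits 16 lost it, with adjusted p ranging over 0.0111 to 0.294 in all of them, and so did leaving out any single array other than micropylar endosperm replicate 2 or chalazal endosperm replicate 1.

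Embryo proper and seed coat differed less, in a comparison with 29.3% called. MPC was higher in the embryo proper by 1.31 (SE 0.48, adjusted p = 0.0440). Its embryo replicates, 82.3 and 329, lay on both sides of the general seed coat, and only 3.93% of tested probe sets had a wider replicate gap in the embryo proper. Without embryo proper replicate 2 the difference was 0.49 (adjusted p = 0.610), and with no pseudocount it was 2.50 (adjusted p = 0.00656). The call was lost in 10 of 21 alternative fits, including those without either peripheral endosperm, chalazal seed coat or whole seed array and without general seed coat replicate 1. For IKU1 the difference was 0.37 (interval -0.70 to 1.44, adjusted p = 0.636).

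Between the seed coat regions MPC was lower in the chalazal than in the general seed coat by -1.96 (SE 0.55, adjusted p = 0.0291), where 8.39% of probe sets were called. Both chalazal signals lay under the added 35.9, so the size depended on it and was -4.28 with no pseudocount and -1.11 with a pseudocount of 100 (adjusted p = 0.135). The call was also lost without any 1 of the 4 seed coat arrays (adjusted p from 0.0697 to 0.199). IKU1 had a difference of 0.21 (interval -1.03 to 1.45, adjusted p = 0.907). The difference between the chalazal shift in endosperm and that in seed coat was -1.65 for MPC (interval -3.28 to -0.02, adjusted p = 0.162) and 0.05 for IKU1 (interval -1.70 to 1.80, adjusted p = 0.978), where 15.8% of probe sets were called. For MPC its sign turned with no pseudocount (0.55, adjusted p = 0.768), and it passed with a pseudocount of 100 (-2.30, adjusted p = 0.0123).

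In the order of compartment means, neighbours often could not be separated. For IKU1 the order ran from chalazal, peripheral and micropylar endosperm to embryo proper, chalazal seed coat and general seed coat, and none of its 5 neighbouring pairs was called. The micropylar endosperm exceeded the embryo proper by 0.14 (interval -1.10 to 1.37, 23.8% of probe sets called). The embryo proper exceeded the chalazal seed coat by 0.27 (adjusted p = 0.795, 26.8% called). For MPC the order was peripheral, micropylar and chalazal endosperm, embryo proper, general and chalazal seed coat, and the first and the last of the 5 neighbouring pairs were called. The chalazal endosperm exceeded the embryo proper by 0.97 (interval -0.18 to 2.12, adjusted p = 0.187, 34.4% called) and by 1.78 without embryo proper replicate 2, when the pair passed (adjusted p = 0.0450). The embryo proper exceeded the general seed coat by 0.33 (interval -0.82 to 1.48, 22.9% called). Each of these orders is of 1 gene's own signals.

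The whole-seed sections did not differ from the mean of the 6 compartments by the test, which called 10.7% of probe sets. This test gives the 6 log2 means equal weight, whatever part of the seed each compartment fills. The difference was -0.74 for IKU1 (interval -1.69 to 0.20, adjusted p = 0.332) and 0.74 for MPC (interval -0.14 to 1.62, adjusted p = 0.297). For MPC the direction depended on the scale, since in linear units the mean of the 6 compartments was 1099 against 602 in whole seeds. For IKU1 these means were 759 and 334, the same direction as on the log2 scale. The mean signal of IKU1 in whole seeds, 334 ± 170, lay between its means in the chalazal seed coat (316 ± 146) and the embryo proper (373 ± 80.5). That of MPC, 602 ± 157, lay between the micropylar (947 ± 238) and the chalazal endosperm (372 ± 34.5).

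IKU1 and MPC did not follow each other closely. Over the 14 arrays their log2 signals correlated at r = 0.53 (Spearman's rho = 0.41), and without the 2 peripheral endosperm arrays, where MPC was farthest from its median, at r = 0.26. Arrays of a group share their tissue, so these are not 14 independent points. Among 9890 tested probe sets with 1 gene symbol, MPC ranked 838 in likeness to IKU1 and IKU1 ranked 887 in likeness to MPC.

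Genes whose pattern was most like each member were taken as the 5 with the highest Pearson correlation over the 14 arrays. Since the choice used these same arrays, a highest or lowest group shared with the member follows largely from it. For IKU1 these were AT2G24810 (r = 0.93), AT1G09510 (0.92), AT3G19630 (0.90), AT5G62110 (0.89) and the serine carboxypeptidase-like gene scpl21 (0.88). Of these, 4 had their highest mean in the chalazal endosperm, as IKU1 did, with AT1G09510 at 23655 ± 8096 and scpl21 at 18957 ± 3009. For IKU1 itself the chalazal and peripheral endosperm were not separated (difference 0.26, interval -0.98 to 1.49). AT5G62110 was highest in the peripheral endosperm, at 1938 ± 186 against 1340.0 ± 29.2 in the chalazal.

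For MPC the 5 were AT5G58820 (r = 0.98), AT1G31250 (0.95), AT1G11070 (0.95), AT1G74470 (0.94), which the gene table calls a geranylgeranyl reductase, and AT3G17080 (0.94). Geranylgeranyl reductase makes the side chain of chlorophyll and tocopherol. All 5 had their highest mean in the peripheral endosperm and their lowest in the chalazal seed coat, as MPC did. AT5G58820 had 10517 ± 1697 and 14.3 ± 13.5 in these groups, and AT1G74470 had 14864 ± 1329 and 213 ± 44.5. Under the alternative settings between 2 and 5 of each set of 5 stayed among the 5 most alike.

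**Figure D3:**
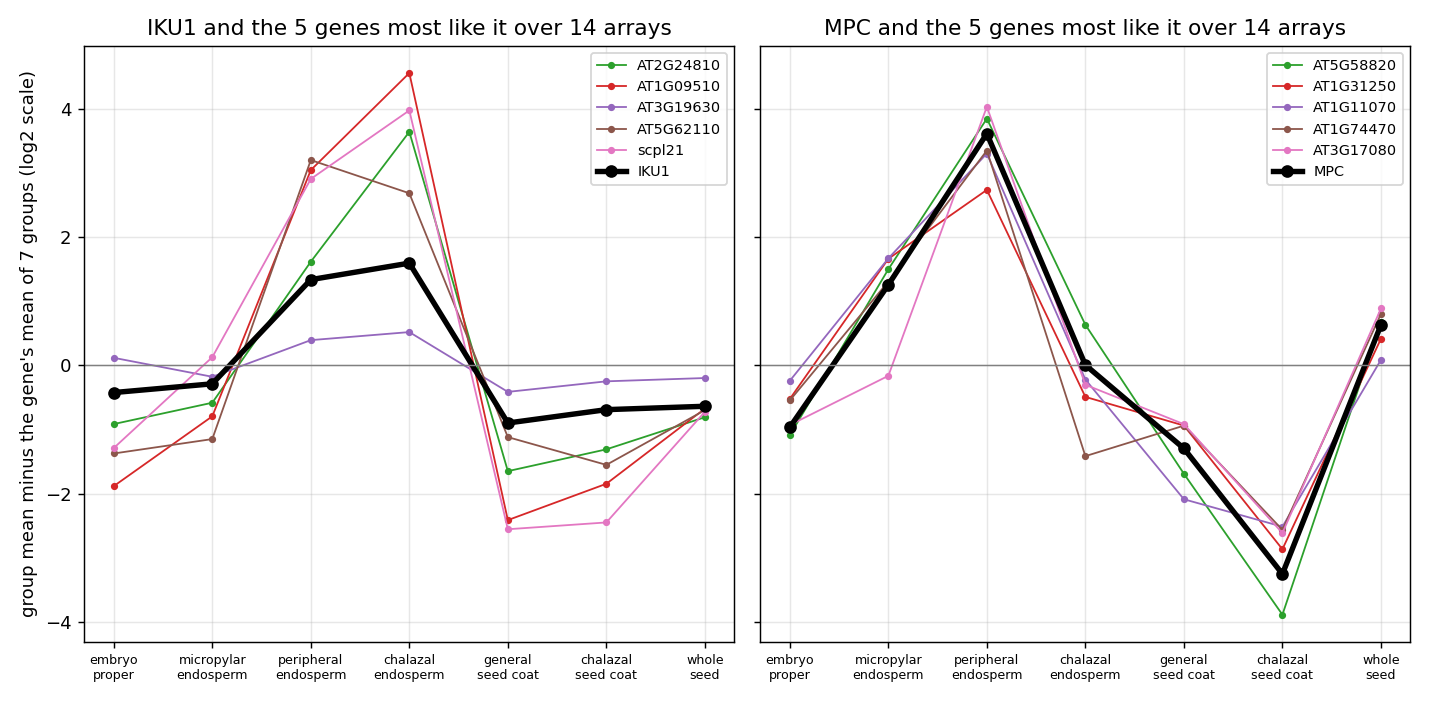
Group means of IKU1 (left) and MPC (right), in black, and of the 5 genes most like each (coloured lines), as the log2(signal + 35.9) group mean minus the gene's mean over 7 groups. The left panel peaks in the peripheral and chalazal endosperm and the right panel in the peripheral endosperm, with its low point in the chalazal seed coat for every line.

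Of 15 listed genes of the IKU pathway and of seed size control, 4 had a probe set with their name alone and 3 were tested, IKU1 among them. Of these 3, 2 were higher in endosperm than in seed coat and none lower, where 14.0% of all tested probe sets were higher and 22.2% lower. IKU1 itself is 1 of the 2, so 1 of the remaining 2 genes was called. AGL62, a type I MADS-box factor that delays wall formation in the endosperm, was higher by 4.64 (SE 0.32, adjusted p = 4.23e-10). Like IKU1 it was bright in the chalazal (5852 and 6469) and peripheral endosperm (3678 and 5237), with 790.1 and 891 in the micropylar endosperm. SHB1, which promotes MINI3 and IKU2 expression, had a difference of 0.74 (SE 0.39, adjusted p = 0.139), which passed without chalazal seed coat replicate 1 (1.15, adjusted p = 0.0384).

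IKU2, the receptor kinase that acts with IKU1, was too dim to be tested. Its signal was 224 and 20.9 in the micropylar endosperm and between 2.19 and 51.1 on the other 12 arrays. The array that gave 224 was the one on which IKU1 read 775. On that array the embryo marker BBM also read 125, against 6.72 on the other micropylar array, while AGL62 differed little between the pair. Other markers differed in both directions. In the same order, PHV read 114 and 8.05 and SWEET10 165 and 31.1, while AGL28 read 165 and 414 and RR22 108 and 231. BBM also read 84.0 and 92.2 in the chalazal endosperm, and IKU1 itself read 430 and 316 in the embryo proper. The part of embryo tissue in the IKU1 gap was not tested.

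Imprinted genes were counted by the parental copy they are known to be expressed from. Of 14 genes expressed from the maternal copy, 3 were tested: 2 were higher in endosperm than in seed coat, MPC and AGL28, and 1 was lower, ALN. MPC itself is among them, and 36.2% of all tested probe sets were called in this comparison. AGL28, a type I MADS-box factor, was higher by 3.39 (SE 0.34, adjusted p = 1.18e-07). It read 3588 and 3684 in the peripheral, 1210 and 1677 in the chalazal, and 165 and 414 in the micropylar endosperm. So AGL28 shared the bright peripheral endosperm with MPC, while its chalazal region exceeded the micropylar by 2.28 (SE 0.53, adjusted p = 0.00340), where the MPC difference was -1.25.

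ALN, the allantoinase that opens the ring of allantoin in purine breakdown, was lower in endosperm than in seed coat by -1.16 (SE 0.33, adjusted p = 0.00737). Its signals in the peripheral endosperm (553 and 898) overlapped with those of the seed coat (644 to 1069). After quantile normalization its difference was -0.93, under the fold threshold. Of 11 listed genes expressed from the paternal copy, 1 was tested. ADM (ADMETOS) exceeded its seed coat level by 1.42 in endosperm (SE 0.39, adjusted p = 0.00535). It read 390.0 and 387 in the micropylar endosperm and 64.2 to 94.8 in the seed coat. AGL92 was not bright enough for a test and read between 2.01 and 109.

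Of 17 listed genes that set or read imprints, 1 had a probe set with its name alone. DME, the DNA glycosylase that removes methylation in the central cell before fertilization, was lower in endosperm than in seed coat by -1.36 (SE 0.30, adjusted p = 0.00117). Its 3 probe sets were all called lower, with the other differences at -2.01 and -1.48, where 22.2% of all tested probe sets were called lower. The 3 were read on the same arrays, so they are not independent. DME read 178 and 234 in the chalazal endosperm, below all other groups by this probe set. None of 8 listed genes for poly(A)-binding proteins had a probe set with its name alone. Of 25 listed VQ genes the gene table gives the listed name for 6, and of these only IKU1 had one. Probe sets of the other VQ genes were not looked up.

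**Figure D4:**
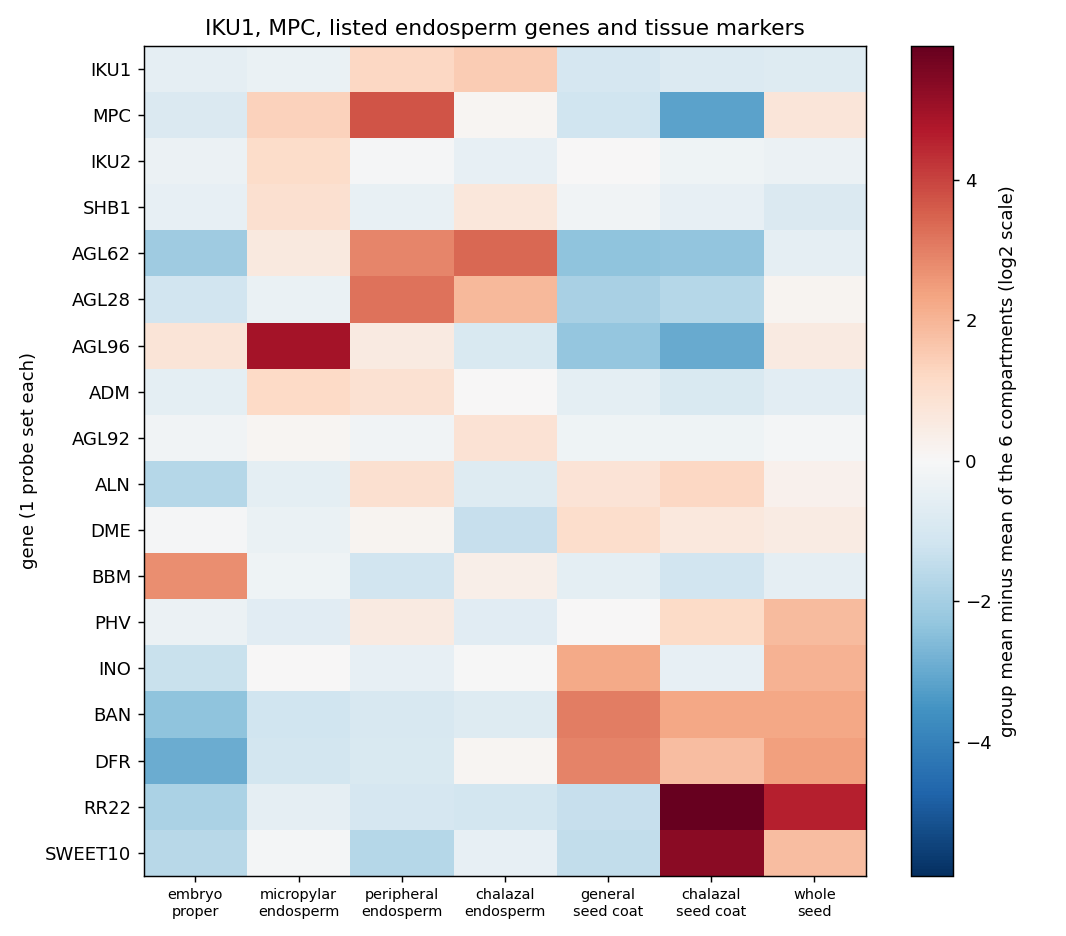
Group means of IKU1, MPC, listed genes and tissue markers, as the log2(signal + 35.9) group mean minus the gene's mean over the 6 compartments, red above and blue below, with 1 probe set for each gene. IKU1 and AGL62 share the peripheral and chalazal endosperm, MPC and AGL28 are highest in the peripheral endosperm, AGL96 in the micropylar endosperm and RR22 in the chalazal seed coat; IKU2 and AGL92 are shown but were too dim to be tested.

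The markers of the labelled tissues were in part high where the labels place them. They were chosen with earlier results of these data known, so this is not an independent check of the dissection. Of 9 listed endosperm markers 3 were tested (AGL62, AGL28 and AGL96), and all 3 were higher in endosperm than in seed coat. IKU2, also on that list, was too dim to be tested. Of 9 listed seed coat markers 5 were tested (INO, BAN, DFR, RR22 and SWEET10), and all 5 were lower. INO lost this call in 8 of 21 alternative fits. Over all tested probe sets, 14.0% were called higher and 22.2% lower in this comparison. BBM read 581 and 680.2 in the embryo proper and at most 125 elsewhere, while PHV, the other tested embryo marker, read 218 and 3.66 there and 214 and 289.7 in the chalazal seed coat, in replicate order. Seed coat transcripts were not absent from the endosperm: DFR, an enzyme of seed coat pigment, read 1291 to 4314 in the 6 endosperm arrays, with the 2 chalazal ones highest (3984 and 4314), against 12694 to 32225 in the seed coat. INO was high in the general seed coat (523 and 763) but read 90.9 and 44.5 in the chalazal seed coat, against 62.0 to 129.7 in the endosperm. BAN read 218 to 558 in the endosperm against 3558 to 8810.0 in the seed coat. RR22 and SWEET10 were at most 240 and 165 in the endosperm. The general seed coat was no higher than that, at 17.1 and 190 for RR22 and 10.9 and 9.79 for SWEET10. Their calls therefore rested on the chalazal seed coat, at 17472 and 16570 for RR22 and 3778 and 6898 for SWEET10. The part of seed coat signal in the endosperm levels of IKU1 and MPC was not tested.

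Among genes beside MPC in the gene table, 3 of the nearest 4 protein-coding genes were tested. AT3G19360, the next gene, was higher in endosperm than in seed coat by 1.55 (SE 0.33, adjusted p = 0.000630) and correlated with MPC at r = 0.26 over the 14 arrays. AT3G19340, on the other side, had a difference of -0.61 (adjusted p = 0.237, r = -0.28), and AT3G19370 was lower by -2.20 (adjusted p = 6.08e-05, r = -0.27). None of them followed the MPC pattern. None of the nearest 4 genes of IKU1 had a probe set with its name alone.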

How the data were processed

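The authors deposited 1 linear intensity for every probe set on every array. GCOS is the tool named, per the submitters' processing notes, and its version and algorithm are not given in the sources used here. Per the labels' protocols, between 2 and 5 ng of RNA from the sections was amplified. The values showed a common scaling, with a mean of 499.7 to 499.8 on every array after the lowest and highest 2% were left out. Array medians ran from 110.4 to 179. Detection calls were not used, and precision is limited by how many arrays there are.

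Of 22810 probe sets, 64 controls were left out. Testing needed a group whose 2 arrays both exceeded their own 40th percentile, and 17336 of 22746 met this. The log2 scale used the deposited values plus 35.9, their 25th percentile. A model with 7 group means was fitted to the whole table with limma 3.58.1 in R 4.3.3, with a trend of the variance on mean signal. It had 7 degrees of freedom from the residuals and 13.4 from the prior. P-values are two-sided and adjusted by Benjamini-Hochberg over all tested probe sets within each comparison, not over the comparisons. The fit was also run on simulated data with known changes and missed part of them, so a difference that was not called is not shown to be absent. In the probe annotation 13513 probe sets had a single symbol, 503 had several, 8730 had none, and 13436 matched the TAIR10.1 gene table. A listed gene was used where that table gives its name at the locus. Of several probe sets for a gene, that with the highest mean was taken. Named were IKU1, MPC, up to 5 tested genes of each list by smallest adjusted p and the 5 most alike genes for each. IKU2, AGL92 and neighbouring genes were named after their values were seen.

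The members, lists, comparisons and markers were chosen with earlier results of these data known. Nothing says that the replicates of a group came from separate plants, beyond the word biological, so p-values measure the spread between arrays. Replicate numbers did not pair arrays across groups, since deviations of same-numbered arrays correlated at -0.03 to 0.04 in 21 pairs of groups. Alternatives covered the pseudocount, quantile normalization, the filter, the variance trend, the replicate block and each array left out. Figures were drawn with matplotlib in Python.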

Additional observations from a re-analysis of the deposited data

How the results depend on the processing

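The higher level in endosperm than in seed coat kept its call in all 21 alternative fits for both genes, from 1.39 to 1.96 for IKU1 and from 3.10 to 5.35 for MPC. So did the F test (21 alternatives), and for MPC the calls against the embryo proper (1.78 to 3.40) and between chalazal and peripheral endosperm (-3.73 to -3.22). Replicate numbers did not pair the arrays, and the replicate block changed no call of IKU1 or MPC (adjusted p = 0.00124 for IKU1 in endosperm against seed coat).

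The IKU1 call of endosperm against the embryo proper was lost with no pseudocount (1.37), with quantile normalization (1.24) and, at 1.30, with no filter and with no trend, and ran from 1.02 to 1.59 over fits that left out 1 array. The MPC call of embryo proper against seed coat was lost with a pseudocount of 100 (0.84) and no filter (1.31), was larger with no pseudocount (2.50), and ran from 0.49 to 2.12 when arrays were left out. The seed coat difference of MPC was lost with a pseudocount of 100 (-1.11), from -2.23 to -1.68 without single arrays. For its pole difference the sign turned with no pseudocount (0.55) and the call passed with a pseudocount of 100 (-2.30). Quantile normalization made the MPC difference of the chalazal endosperm and general seed coat pass (1.61) and ended the ALN call, leaving 0 lower genes expressed from the maternal copy. It moved the median of all probe sets in endosperm against seed coat from -0.06 to 0.06 and in the whole seed from 0.09 to -0.09. The cause of these changes was not tested.

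With arrays left out singly, IKU1 ran from 1.02 to 2.75 in chalazal against micropylar, from -0.40 to 0.91 in chalazal against peripheral and from -2.49 to -0.76 in micropylar against peripheral endosperm. Against the general seed coat it ran from -0.25 to 1.48 in the micropylar, 2.13 to 2.34 in the peripheral and 1.84 to 3.15 in the chalazal endosperm. Against the chalazal seed coat the ranges were -0.46 to 1.27 (-0.03 without chalazal seed coat replicate 2), 1.59 to 2.46 and 1.63 to 2.94. In the order of compartments it ran from -0.73 to 1.00 for micropylar endosperm minus embryo proper (-0.07 without embryo proper replicate 2) and from -0.17 to 0.70 for embryo proper minus chalazal seed coat. Its seed coat difference ran from -0.23 to 0.64 and its pole difference from -0.61 to 0.70 (-0.39 without chalazal seed coat replicate 2 and -0.05 without general seed coat replicate 1). MPC ran from -2.61 to -2.11 in micropylar against peripheral endosperm, from 0.16 to 1.78 for chalazal endosperm minus embryo proper and from -0.48 to 1.14 for embryo proper minus general seed coat.

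Counts over all probe sets moved by over 1.5 times in some fits. With no pseudocount 875 probe sets were called between the seed coat regions (1455 as reported), 1141 in the whole seed (1860) and 1781 for the pole difference (2743). The lowest counts without 1 array were 2517 of 4816 for endosperm against embryo proper, 3086 of 5072 for embryo proper against seed coat, 3008 of 4670 for chalazal and 869 of 2111 for micropylar against peripheral endosperm, 811 for the seed coat regions, 613 for the whole seed and 1719 for the pole difference. For pairs with the embryo proper they were 2253 of 4134 (micropylar endosperm), 3099 of 4654 (chalazal seed coat) and 2499 of 3973 (general seed coat).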
